A study of Mus musculus with 2 samples.

Results

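The genes described here are 8 regulators of globin switching and of the fetal gene program, namely *Bcl11a*, *Sox6*, *Zbtb7a*, *Lin28b*, *Igf2bp1*, *Igf2bp2*, *Igf2bp3* and *Hmga2*. They were chosen by symbol from the 27998 genes of the count table, and each symbol matched 1 row. The data come from a CITE-seq experiment, in which barcoded antibodies and mRNA are counted in the same single cells, on liver cells of C57BL/6 mouse fetuses at e13.5. Livers of several embryos were pooled, Ter119-positive cells were partly depleted, and Ter119-positive cells were then added back in equal number, so the shares of cells at each stage are set by this design. There was 1 cDNA library and 1 antibody library of the same 7863 cells, with 58606632 unique molecular identifiers (UMIs), and 7244 cells were kept after quality and doublet filters. With no replicate library there is no spread between samples and no test, and every interval below is an exact 95% interval for counting error only.

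Cells were placed by antibody counts along the course of erythroid differentiation. Ter119 marks maturing red cells, and CD71, the transferrin receptor, appears earlier and is lost at the end. Cells low for Ter119 were split by CD71 into S0-low (1038 cells), S0-medium (1046) and S1 (606). Cells with intermediate Ter119 were S2 (1293) where CD71 was above the border between S0-medium and S1. Those with less CD71 were in no stage. Cells high for Ter119 were split by CD71 into S3 (835) and S4/S5 (895). Gate positions are not given in the sources used here, and the sizes depend on how the antibody counts are scaled and split. With log10 counts, scaling within each cell or a Gaussian mixture, S0-low held 253, 276 and 262 cells and S3 held 1879, 1439 and 1079. The median Ter119 count per cell went from 4 in S0-low to 155 in S4/S5, and the median count of cKit, a progenitor receptor, from 277 to 13. Cells of 7 clusters with non-erythroid leading genes were kept out of the stages, which removed 472 of 1510 gated S0-low cells. Among these clusters, 4 types carried a name from their markers: hepatocyte-like (184 cells), megakaryocyte-like (96), myeloid-like (541) and macrophage-like (82), together called non-erythroid cells (903). The titles of the samples name erythroid differentiation, and these clusters show that the library also held other liver cells.

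In the mouse, yolk sac red cells use the embryonic β-like globin genes *Hbb-y* and *Hbb-bh1*, and red cells made in the fetal liver use the adult genes *Hbb-bs* and *Hbb-bt*. *Bcl11a*, *Sox6* and *Zbtb7a* (also called LRF) encode DNA-binding factors that silence embryonic or fetal globin genes. *Lin28b* encodes an RNA-binding protein that blocks the maturation of let-7 microRNAs, which in turn bind the RNAs of *Lin28b*, the *Igf2bp* genes and *Hmga2*. *Hmga2*, a chromatin protein, and the IGF2BP proteins, which bind and protect mRNAs, belong to the program that distinguishes fetal from adult blood stem and progenitor cells.

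The tags below identified the antibodies that define the stages. They are the oligonucleotides as the labels give them, 5′ to 3′.
Ter119: gaggcgattgat
CD71: cgaagaaggagt

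The mature microRNAs of the let-7 family are shown because they connect *Lin28b* to the other genes. The sequences are from RefSeq (GRCm38.p6), and capitals mark the seed, bases 2 to 8.
let-7a: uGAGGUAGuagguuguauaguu
let-7g: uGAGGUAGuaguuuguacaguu
miR-98: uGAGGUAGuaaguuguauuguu
let-7j: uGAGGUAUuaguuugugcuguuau
Of 11 family members with a mature sequence, 10 shared the seed of let-7a, and let-7j differed in its last seed base. These microRNAs are not polyadenylated in their mature form and were not measured.

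The annotated 3′ untranslated regions (UTRs) were searched on the transcribed strand for CTACCTCA, which pairs with the seed and has an A opposite the first base. The sites found are shown as 22 bases each, with the match in capitals, on build NCBIM37 (mm9) with the GENCODE M1 annotation, all on the minus strand.
Lin28b, chr10:45100828-45100849: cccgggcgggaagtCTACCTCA
Igf2bp1, chr11:95823092-95823113: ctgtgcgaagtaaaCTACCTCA
Igf2bp1, chr11:95820671-95820692: agcagtgctattaaCTACCTCA
Igf2bp1, chr11:95820077-95820098: tataaatggatgaaCTACCTCA
Igf2bp2, chr16:22059546-22059567: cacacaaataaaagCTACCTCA
Igf2bp3, chr6:49036786-49036807: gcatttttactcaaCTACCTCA
Hmga2, chr10:119801280-119801301: ccgacattcaatttCTACCTCA
All 5 fetal-program genes held at least 1 such match and *Igf2bp1* held 3, whereas *Bcl11a*, *Sox6* and *Zbtb7a* held 0, although their 3′ UTRs of 3263, 5574 and 3787 bases were longer than the 1784 bases of *Igf2bp2*. Over all genes, 601 of 19915 with a 3′ UTR held the match (3.02%), and 5 genes (0.0251%) held 3 or more. With the shorter match CTACCTC, which 8.81% of genes held and which includes every longer match, *Lin28b*, *Igf2bp1* and *Hmga2* had 4 each, *Igf2bp2* and *Igf2bp3* had 1 each, and the 3 repressor genes again had 0. A match of letters is not evidence of binding.

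The files give each gene by an Ensembl identifier, and RefSeq places the genes on GRCm38 (mm10), the build of the count table. *Bcl11a* (ENSMUSG00000000861) lies at chr11:24076564-24173558 and *Igf2bp1* (ENSMUSG00000013415) on the same chromosome at chr11:95957163-96005944. Chromosome 10 holds 3 of the genes, *Lin28b* (ENSMUSG00000063804) at chr10:45376617-45486314, *Zbtb7a* (ENSMUSG00000035011) at chr10:81135225-81152222 and *Hmga2* (ENSMUSG00000056758) at chr10:120361268-120476469. *Sox6* (ENSMUSG00000051910) lies at chr7:115470872-116040776, *Igf2bp2* (ENSMUSG00000033581) at chr16:22059009-22163299 and *Igf2bp3* (ENSMUSG00000029814) at chr6:49085218-49215469.

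The 3 repressor genes had different courses along the stages. Levels are given as summed UMIs per 1000000 (CPM). *Bcl11a* was highest at the start, at 270, 260 and 228 CPM in S0-low, S0-medium and S1, and was at 141 CPM in S2, 59.9 in S3 and 30.8 in S4/S5. The intervals of S0-low (259 to 282) and S0-medium (251 to 270) overlapped and those of every later pair of neighbouring stages did not. *Sox6* was higher at each stage up to S3, at 6.56, 20.9, 47.3, 85.3 and 102 CPM from S0-low to S3 and at 59.2 CPM in S4/S5. All neighbouring stages had separate intervals for *Sox6*. *Zbtb7a* lay between these patterns, at 82.5, 106, 137, 175, 136 and 31.3 CPM from S0-low to S4/S5. Its level in S2 was the highest with all UMIs in the denominator, but with globin UMIs left out it was at 201 in S2 and 219 in S3. On that scale *Sox6* was at 165 in S3 and 166 in S4/S5, and *Bcl11a* at 96.6 and 86.2. The intervals of *Zbtb7a* in S1 (128 to 146) and S3 (125 to 147) overlapped.

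A 3′ UMI library gives about 1 count per captured transcript whatever its length, so CPM needs no scaling by length. How fully the transcripts of each gene were captured and counted was not measured, and the intervals do not cover it. The order of genes given here is thus one of counts. In S0-low, *Bcl11a* had the highest CPM of the 8 genes and *Sox6* the lowest. In S3 the order of the repressors was *Zbtb7a* (136 CPM), *Sox6* (102) and *Bcl11a* (59.9), with separate intervals. In S4/S5, *Sox6* at 59.2 CPM (51.7 to 67.4) was above *Zbtb7a* at 31.3 (25.9 to 37.4) and *Bcl11a* at 30.8 (25.5 to 36.8), and the last 2 did not differ beyond counting error.

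**Figure D1:**
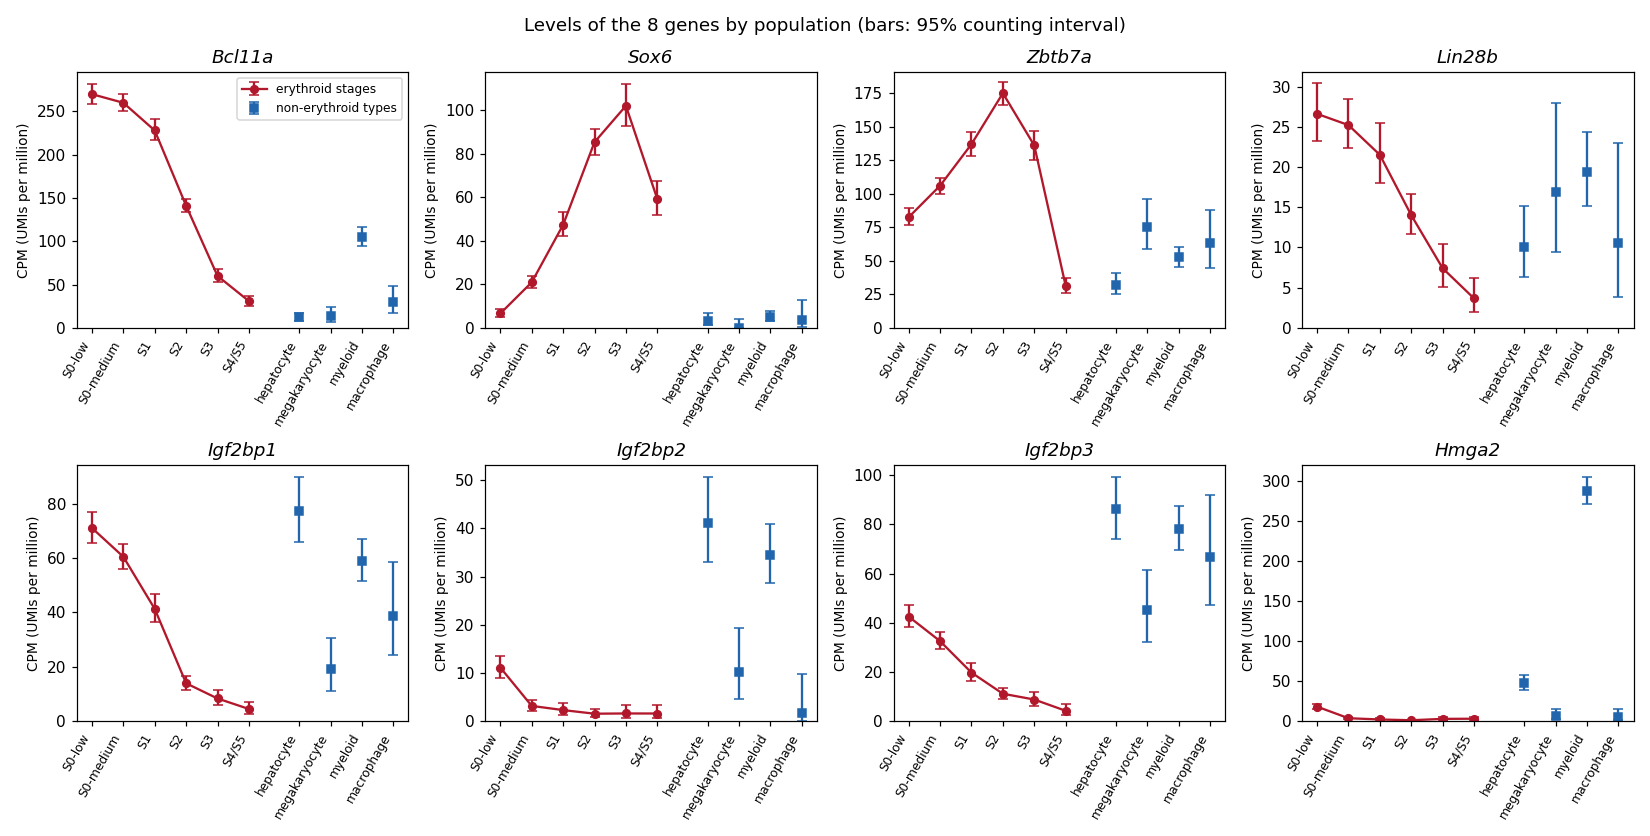
Level of each of the 8 genes in CPM (vertical axis, from 0, with its own range in each panel) in the 6 erythroid stages (red circles, joined) and the 4 non-erythroid types (blue squares), with exact 95% counting intervals as bars. *Bcl11a* starts at 270 CPM and ends at 30.8, *Sox6* reaches 102 in S3 and *Zbtb7a* 175 in S2, both with globin in the denominator, and *Hmga2* stands at 288 in myeloid-like cells.

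All 5 fetal-program genes were highest at S0-low among the stages in CPM. In UMIs per 100 cells, *Lin28b* was at 21.1 in S0-low and 26.1 in S0-medium, and *Igf2bp1* at 56.4 and 62.5. On that scale *Igf2bp3* was at 33.7 in both, and *Igf2bp2* and *Hmga2* were still highest at S0-low. *Lin28b* was at 26.6, 25.2, 21.5, 14.0, 7.40 and 3.65 CPM from S0-low to S4/S5. *Igf2bp1* was at 71.1, 60.5, 41.3, 13.9, 8.30 and 4.43 CPM and *Igf2bp3* at 42.5, 32.5, 19.7, 11.1, 8.75 and 4.17 CPM over the same stages. In S0-low the 3 genes were apart from each other beyond counting error, and from S2 on they were not. *Igf2bp2* and *Hmga2* were low beyond S0-low. *Igf2bp2* was at 11.1 CPM in S0-low and between 1.52 and 3.14 in the other stages, and *Hmga2* was at 18.0 CPM in S0-low and between 0.976 and 3.51 in the others. The levels of *Lin28b* in S0-low and S0-medium did not differ beyond counting error, nor did those of *Igf2bp2* or *Hmga2* between S3 and S4/S5, which rest on 6 to 12 UMIs each.

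Shares of cells with a UMI depend on depth, which ranged from a median of 3949 UMIs per cell in S4/S5 to 10304 in S0-medium. After each cell was thinned to 2000 UMIs, with no cell shallower than this, *Bcl11a* was detected in 40.8% of S0-low cells (37.8 to 43.9) and 4.02% of S4/S5 cells (2.83 to 5.53). Without thinning the shares were 81.2% and 8.60%. In hepatocyte-like cells, which are not known to use *Bcl11a* and had a median depth of 12969 UMIs, they were 1.63% (0.338 to 4.69) thinned and 12.5% unthinned. *Sox6* was detected in 1.35% of thinned S0-low cells (0.739 to 2.25) and 18.7% of thinned S3 cells (16.1 to 21.5), against 4.72% and 37.4% unthinned. Its share in hepatocyte-like cells was 0.543% (0.0138 to 2.99) thinned and 3.26% unthinned. *Sox6* in S0-low was thus not separable from that background by its share of cells.

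RNA free in the droplets sets a floor for these levels. Globin RNA made up 1.29% of UMIs in hepatocyte-like cells, which is 11.1% of its share in all kept cells (11.7%). If each gene contributed free RNA in that proportion, the background would be 18.4 CPM for *Bcl11a*, 11.7 for *Zbtb7a*, 4.71 for *Igf2bp1*, 4.49 for *Sox6*, 3.61 for *Igf2bp3*, 3.53 for *Hmga2*, 1.97 for *Lin28b* and 0.960 for *Igf2bp2*. The levels of *Hmga2* from S0-medium to S4/S5 and of *Igf2bp1* in S4/S5 were at or below this value and are not shown to be above background. *Bcl11a* in hepatocyte-like cells (11.9 CPM) and megakaryocyte-like cells (interval 6.99 to 23.6) was also at or below it. So was *Sox6* in hepatocyte-like (3.20), macrophage-like (3.52) and megakaryocyte-like cells (0 UMIs, which allows up to 4.16 CPM). The intervals of further levels included it. These were *Igf2bp2* from S2 to S4/S5, *Igf2bp3* in S4/S5 (2.38 to 6.78), *Sox6* in myeloid-like cells (3.05 to 7.90), *Hmga2* in megakaryocyte-like cells, and *Bcl11a* (17.4 to 47.9), *Igf2bp2* and *Hmga2* in macrophage-like cells. A ratio with such a level on one side is set in part by the background, which its interval does not cover. The background values can be too high. The intervals of *Hmga2* in S2 (0.446 to 1.85) and *Bcl11a* in hepatocyte-like cells (7.77 to 17.4) lay wholly below them. *Hmga2* in S0-medium (2.49 to 4.82) was apart from S2. The background values come from cells with a median of 12969 UMIs, against 3949 in S4/S5, and may be too low for shallow cells. *Pf4* was at 22.4 CPM in hepatocyte-like cells and 47.7 in S4/S5, and *Mpo* at 11.0 and 25.8. *C1qa* was at 2.29 and 1.30, from 5 UMIs each. Low levels in S3 and S4/S5, such as *Bcl11a* and *Lin28b* in S4/S5, are thus not shown to be above background.

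Cells at the onset of erythroid differentiation were compared as S1 over S0-low. A gene was called different where the ratio of CPM was at least 2 in either direction and the 2 populations held at least 50 UMIs of it together. Of 8622 genes compared, 2.85% were higher in S1 and 9.05% lower, with a median log2 ratio of -0.18. All 8 regulators could be compared. *Sox6* was higher, by a ratio of 7.20 (5.37 to 9.81), and its ratio exceeded that of 99.9% of genes. *Igf2bp2* was lower at a ratio of 0.205 (0.108 to 0.362), *Igf2bp3* at 0.464 (0.375 to 0.572) and *Hmga2* at 0.108 (0.0546 to 0.194). The S1 level of *Hmga2* was below its background value, and over the alternatives its ratio lay between 0.0371 and 0.329. The other 4 stayed within the limit, with *Zbtb7a* at 1.66 (1.49 to 1.83), *Bcl11a* at 0.845 (0.790 to 0.903), *Lin28b* at 0.809 (0.647 to 1.01) and *Igf2bp1* at 0.580 (0.499 to 0.674). The directions of *Bcl11a* and *Lin28b* depended on the processing. Over the alternatives *Bcl11a* lay between 0.798 and 1.15, with 1.07 when the cells of non-erythroid clusters were put back and 1.09 per cell, and *Lin28b* between 0.761 and 1.11, with 1.04 per cell. Counted per cell, *Zbtb7a* also passed the limit, at 2.13.

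A single cluster of S0-low cells carried most of the *Hmga2* signal. This cluster (290 of the S0-low cells), which had no name by its markers and was led by *Gm15915* and *Gata2*, held 114 of the 148 *Hmga2* UMIs of S0-low, at 46.2 CPM (38.1 to 55.5). In the other S0-low clusters of at least 50 cells *Hmga2* was between 3.81 and 6.88 CPM. *Igf2bp2* was also highest there, at 20.3 CPM (15.0 to 26.7) against 0 to 7.99, whereas *Bcl11a* was lower there, at 234 CPM (215 to 254), than in clusters 8 (273) and 9 (333). Markers of other cells moved with these genes. The 8 early progenitor markers, all detected in this cluster, summed to 408 CPM in it against 26.7 to 111 in the other clusters, where 4 to 8 of them were detected and *Gata2*, *Hlf*, *Cd48* and *Spi1* were at 0 in cluster 10. The megakaryocyte markers (10 of 10 detected) summed to 263 CPM against 54.5 to 66.4, and the mast or basophil markers (4 of 7 detected, *Mcpt8*, *Gzmb* and *Cyp11a1* at 0) to 463 against 41.9 to 106. The mast or basophil list includes *Srgn*, which alone gave 636 CPM in megakaryocyte-like cells and the 41.9 of cluster 10. A high sum of that list is thus not particular to mast cells or basophils. The 9 erythroid markers, all detected, summed to 1366 CPM against 2157 to 5045. The 12 myeloid markers, of which 11 were detected and *Ltf* was at 0, summed to 148 CPM in the cluster, against 68.5 to 103 in the other S0-low clusters and 6002 in the *Mpo*-led myeloid-like cluster. Of these markers *Mpo* was at 38.5 CPM (31.1 to 47.0) against 3.81 to 10.5. Their part in the result was not tested. Without this cluster the S1 to S0-low ratio was 0.318 (0.160 to 0.596) for *Igf2bp2*, 0.529 (0.420 to 0.664) for *Igf2bp3* and 0.329 (0.155 to 0.651) for *Hmga2*, which then had too few UMIs to be called, so that 1 gene rather than 3 passed the lower limit. Of all genes, 5.55% were then lower.

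The surface protein cKit gave a related split. In the 519 S0-low cells with more cKit, *Hmga2* was at 22.6 CPM (18.8 to 27.0), and in the 519 with less it was at 9.15 (5.98 to 13.4). For *Sox6* the order was reversed, with 3.16 CPM (1.84 to 5.05) at more cKit, which is below its background value of 4.49, and 13.0 (9.17 to 17.9) at less. In the S0-low cells of cluster 10, with a median cKit count of 36, *Sox6* was at 34.3 CPM (15.7 to 65.0) from 9 UMIs. The part of these cells in the split was not tested. *Zbtb7a* was also lower at more cKit, at 73.1 CPM (66.1 to 80.7) against 100 (89.0 to 113). *Bcl11a*, at 263 and 284 CPM, *Lin28b* (26.0 and 27.8) and *Igf2bp1* (71.8 and 69.7) did not differ beyond counting error between these groups. The groups also differed in depth, with a median of 10643 UMIs per cell at more cKit and 4649 at less.

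Finer groups showed where within the gates the levels differed. The Ter119-low cells were ordered by CD71 into 5 groups of 538. *Sox6* was higher in each successive group, at 3.95, 9.40, 16.8, 26.7 and 49.4 CPM, and no intervals overlapped. The first of these levels is below the background value of *Sox6*, 4.49 CPM. *Zbtb7a* was at 74.7, 89.4, 100, 114 and 139 CPM, with overlap between neighbours up to the fourth group. *Hmga2* differed mainly between the first groups, at 31.0, 6.89, 3.39, 3.22 and 1.84 CPM, and so did *Igf2bp2*, with an interval of 12.3 to 20.6 in the first group and levels of 6.89, 2.86, 3.04 and 2.20 CPM in the others. *Igf2bp1* stayed between 70.2 and 71.5 CPM in the first 3 groups and was at 47.9 and 40.8 in the last 2. *Bcl11a* ranged only from 228 to 282 CPM across the 5 groups.

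Within the cells carrying Ter119, ordered by their Ter119 count into 5 groups of 646 or 647, the picture was different. *Bcl11a* was at 169, 113, 63.8, 55.3 and 32.7 CPM from the lowest to the highest group. *Zbtb7a* stayed at 169, 166 and 159 CPM in the first 3 groups and was at 90.0 and 53.5 in the last 2. *Sox6* lay between 73.4 and 90.1 CPM. The share of globin differs between these groups, and without globin in the denominator *Sox6* was at 88.2, 109, 139, 169 and 182, *Bcl11a* at 185, 140, 98.1, 106 and 81.1, and *Zbtb7a* at 184, 205, 245, 172 and 133. *Lin28b* went from 14.4 to 4.04 CPM and *Igf2bp1* from 18.7 to 5.29.

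**Figure D2:**
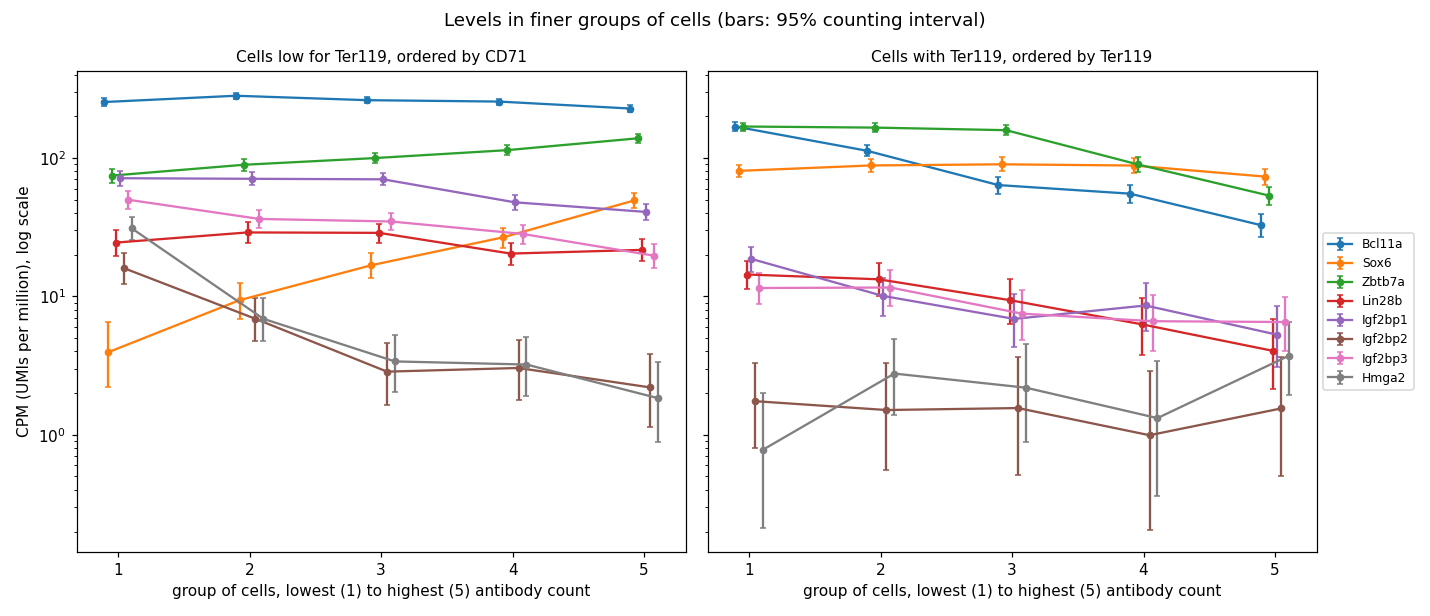
Level of each gene in CPM (vertical axis, log scale) in 5 groups of Ter119-low cells ordered by CD71 (left) and 5 groups of Ter119-positive cells ordered by Ter119 (right), with exact 95% counting intervals. *Sox6* climbs from 3.95 to 49.4 CPM on the left and stays between 73.4 and 90.1 on the right, while *Bcl11a* is nearly level on the left and goes from 169 to 32.7 on the right. All UMIs are in the denominator, and without globin *Sox6* goes from 88.2 to 182 and *Bcl11a* from 185 to 81.1 on the right.

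From S1 to S3 globin RNA took over the library, from 2.82% of UMIs in S1 to 38.0% in S3 and 64.3% in S4/S5. A larger globin share lowers the CPM of every other gene by arithmetic, and the median log2 ratio of all genes was -1.07 in S3 over S1 and -0.99 in S4/S5 over S3. With globin UMIs left out of the denominator, the medians were -0.42 and -0.20. Of 7525 genes compared in S3 over S1, 4.64% were higher and 53.7% lower, or 9.29% and 20.2% without globin and 13.2% and 9.58% with TMM scaling factors.

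Of the 8 regulators, 6 had enough UMIs in S3 and S1. *Sox6* was higher, at a ratio of 2.16 (1.86 to 2.51), which is 2.18 above the median of all genes on the log2 scale, and its ratio without globin was 3.38 (2.92 to 3.93). It was under the limit as a mean over cells of CPM (1.94) and as UMIs per cell (1.13). Below the limit lay *Igf2bp1* at 0.201 (0.138 to 0.285), *Bcl11a* at 0.262 (0.229 to 0.299), *Lin28b* at 0.344 (0.227 to 0.507) and *Igf2bp3* at 0.443 (0.301 to 0.640). These 4 stand against a background in which 53.7% of genes were lower. Without globin, *Igf2bp1* (0.315) and *Bcl11a* (0.411) stayed below the limit, and *Lin28b* (0.539) and *Igf2bp3* (0.694) did not, and with TMM factors only *Igf2bp1* did (0.393). Relative to the median of all genes, *Igf2bp1* was at -1.24 on the log2 scale, with a lower ratio in only 3.04% of genes, and *Igf2bp3* at -0.10. *Zbtb7a* had a ratio of 0.995 (0.895 to 1.11) in CPM and of 1.56 (1.40 to 1.73) without globin, and was above the median by 1.06.

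In S4/S5 over S3, 0.346% of 5498 genes were higher and 49.5% lower, against 4.02% and 5.38% without globin. Of the 5 regulators compared, 0 were higher, and *Zbtb7a*, at 0.230 (0.188 to 0.280), and *Igf2bp3*, at 0.477 (0.249 to 0.873), were lower. Only *Zbtb7a* of these stayed below the limit without globin (interval 0.326 to 0.487), and its ratio in CPM was lower than that of all but 1.51% of genes. *Bcl11a* and *Sox6* had ratios of 0.514 and 0.580 in CPM, and 0.892 (0.712 to 1.11) and 1.01 (0.855 to 1.18) without globin, where both intervals included 1. Counted per cell, all 5 were lower by the limit, from 0.185 for *Zbtb7a* to 0.465 for *Sox6*. On that scale 73.2% of all genes were lower, with a median log2 ratio of -1.31. In these pooled counts, fewer transcripts per cell and fewer cells that use a gene cannot be told apart.

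**Figure D3:**
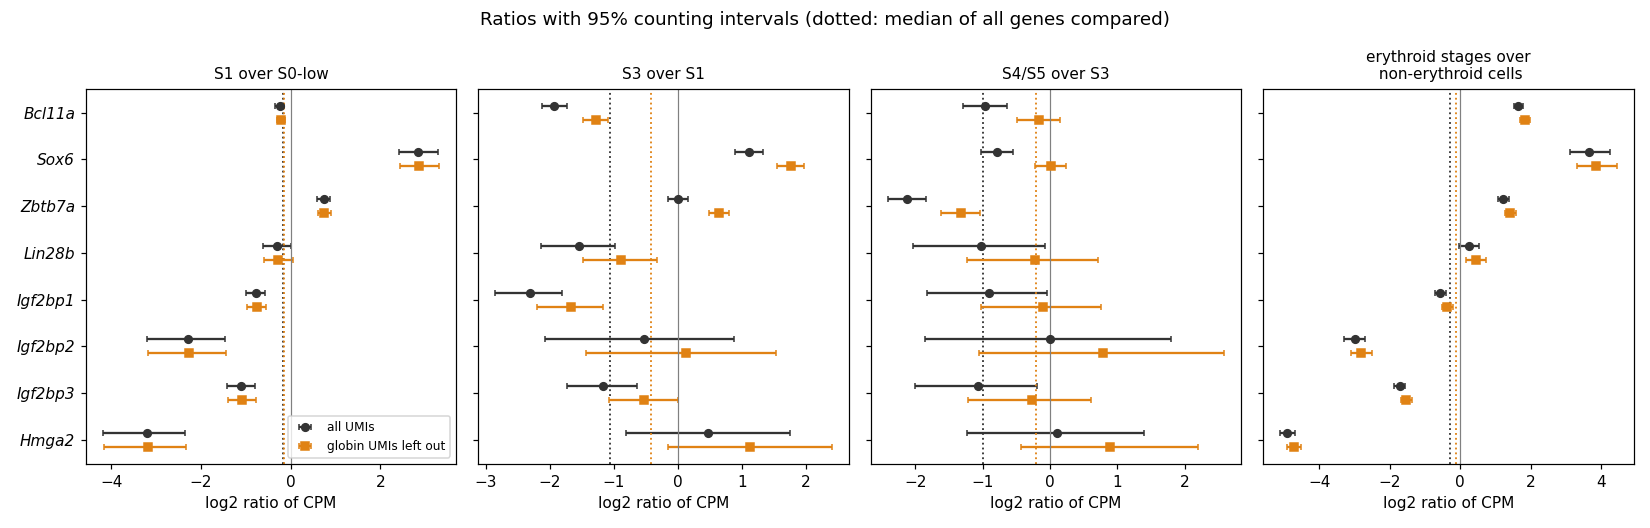
Log2 ratio of CPM (horizontal axis) for each gene in 4 comparisons, with all UMIs in the denominator (black circles) or without globin UMIs (orange squares), exact 95% counting intervals as bars, and the median of all genes compared as dotted lines of the same colour. *Igf2bp2* and *Hmga2* in S3 over S1, and with *Lin28b* in S4/S5 over S3, had too few UMIs to be called. *Sox6* lies right of both medians in S1 over S0-low and S3 over S1, and *Zbtb7a* lies left of both in S4/S5 over S3.

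In all erythroid stages over the non-erythroid cells, 6.69% of 10901 genes were higher and 29.0% lower. The comparison pools types that differed among themselves. The regulators that were higher were the 3 repressors, *Sox6* at a ratio of 12.6, or 14.4 (9.92 to 21.7) without globin, *Bcl11a* at 3.14 (2.86 to 3.46) and *Zbtb7a* at 2.34, or 2.66 (2.40 to 2.97) without globin. The pooled non-erythroid level of *Sox6*, 3.79 CPM, was below its background value. *Bcl11a* in myeloid-like cells, at 105 CPM (94.6 to 116), was above its level in S3 and S4/S5. *Zbtb7a* in S4/S5, at 31.3 CPM, was below its levels in myeloid-like (52.7), macrophage-like (63.4) and megakaryocyte-like cells (75.5). Without globin these were 87.6 against 53.5, 64.8 and 76.2. *Sox6* in S0-low (6.56 CPM) and in myeloid-like cells (5.06) did not differ beyond counting error. Those that were lower were *Hmga2* at 0.0334 (0.0288 to 0.0384), *Igf2bp2* at 0.125 (0.102 to 0.154) and *Igf2bp3* at 0.304 (0.273 to 0.337). Over the alternatives the ratio of *Hmga2* lay between 0.0303 and 0.296 and that of *Bcl11a* between 2.2 and 11.1, far beyond their counting intervals. *Lin28b*, at 1.19 (0.982 to 1.46), did not differ beyond counting error in CPM, but was at 1.36 (1.12 to 1.67) without globin. *Igf2bp1* was at 0.676 (0.607 to 0.753), or 0.771 (0.693 to 0.859) without globin.

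The myeloid-like cells set several of these values. They consisted of a cluster of 499 cells led by *Mpo*, *Prtn3*, *Ctsg* and *Elane*, the granule genes of early granulocytes and monocytes, and a cluster of 42 cells led by *Ngp* and *Camp*, which mark later granulocytes. The top genes of the *Mpo*-led cluster also included the early progenitor markers *Plac8* and *Cd34*. Its 8 early progenitor markers, all detected, summed to 3252 CPM and its 7 mast or basophil markers, all detected, to 1384. The latter sum includes *Srgn*, which is not particular to those cells. Its median cKit count was 380 per cell, against 32.5 in the *Ngp*-led cluster. The part of progenitors in its levels was not tested. *Hmga2* was at 306 CPM (288 to 324) in the *Mpo*-led cluster, with a UMI in 67.5% of its cells, and at 4.48 CPM (0.113 to 24.9) in the *Ngp*-led one. *Igf2bp2* was at 36.5 CPM in the first and had 0 UMIs in the second, and *Igf2bp1* was at 62.0 and 8.96 CPM. *Igf2bp3* was at 79.0 and 62.7 CPM with overlapping intervals. *Bcl11a*, which is also used in lymphoid and dendritic lineages, was at 108 CPM in the *Mpo*-led cluster and 49.3 in the other. Without the *Mpo*-led cluster the erythroid to non-erythroid ratio was 0.182 (0.145 to 0.230) for *Hmga2*, 11.1 (8.75 to 14.4) for *Bcl11a* and 20.5 (10.8 to 44.9) for *Sox6*, and 3 regulators were still higher and 3 lower. Of the 10591 genes then compared, 10.2% were higher and 26.7% lower.

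Hepatocyte-like cells, in which *Alb* reached 18319 CPM, had high levels of the IGF2BP genes. *Igf2bp3* was at 86.1 CPM (74.2 to 99.3) in them, *Igf2bp1* at 77.4 (66.1 to 89.9), *Hmga2* at 47.6 (38.9 to 57.7) and *Igf2bp2* at 41.2 (33.1 to 50.6). Compared with S0-low, *Igf2bp2* was higher there by 3.73 (2.75 to 5.04), *Hmga2* by 2.65 (2.04 to 3.42) and *Igf2bp3* by 2.02 (1.69 to 2.42), while *Igf2bp1* was at 1.09 (0.912 to 1.29) of S0-low. Megakaryocyte-like cells had *Igf2bp3* at 45.1 CPM and *Zbtb7a* at 75.5 CPM, each within counting error of S0-low, and *Hmga2* at only 6.76. Macrophage-like cells had *Igf2bp3* at 66.9 CPM, *Zbtb7a* at 63.4 and *Igf2bp1* at 38.7, and 1 UMI of *Igf2bp2*. Their median Ter119 count of 73.5 per cell lay between those of S2 (51) and S3 (124).

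A pair of clusters without a name also held these genes. The 208 cells of a cluster led by *Lsp1*, *Ccr2* and *Lyz2* had *Hmga2* at 144 CPM (126 to 165) and *Igf2bp3* at 89.7. The 64 cells of a cluster led by *Mest*, *Sparc* and *Serpinh1* had *Hmga2* at 92.8 CPM (69.1 to 122), *Igf2bp1* at 83.7 and *Igf2bp2* at 43.7. Both lay outside the named types and outside the stages.

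**Figure D4:**
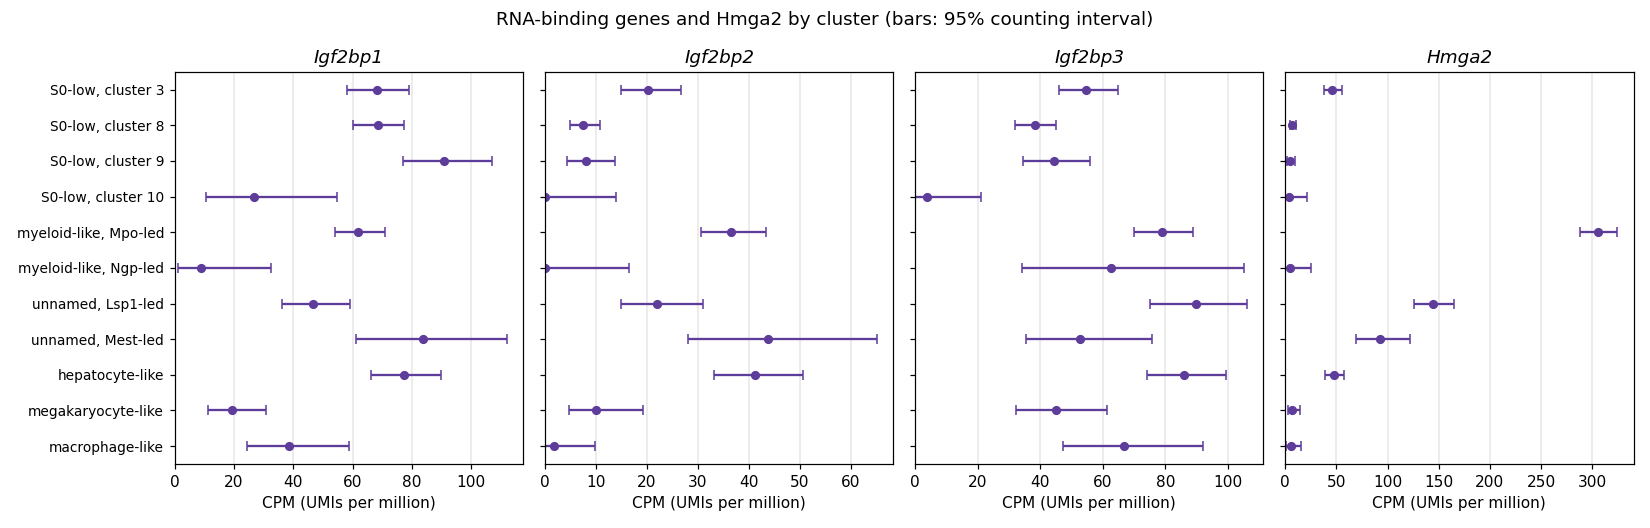
Level in CPM (horizontal axis, from 0) of *Igf2bp1*, *Igf2bp2*, *Igf2bp3* and *Hmga2* in the S0-low cells of 4 clusters and in 7 non-erythroid clusters, with exact 95% counting intervals. *Hmga2* is at 306 CPM in the *Mpo*-led cluster and at 46.2 in S0-low cells of cluster 3, and stays under 10 in the other S0-low clusters, whereas *Igf2bp3* is between 45.1 and 89.7 CPM in every non-erythroid cluster.

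A small set of Ter119-positive cells used embryonic β-like globin. Of 3176 such cells with at least 100 β-like globin UMIs, 94 took 10% or more of them from *Hbb-y* and *Hbb-bh1*, and 70 took 80% or more. Near the limit, 12 cells lay between 8% and 10% and 4 between 10% and 12%. These cells had *Hbb-y* at 465130 CPM against 296 CPM in the other 3082 cells, which follows from the rule. Of the 94 cells, 52 were in S4/S5, 20 in S3, 7 in S2 and 15 in no stage.

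All 3 repressors had fewer counts in these cells, but so did most genes. Of 7839 genes compared, 0.855% were higher and 76.7% lower, with a median log2 ratio of -1.51, and globin made up 72.2% of their UMIs against 29.9% in the other cells. Of 6 regulators compared, 0 were higher and 5 were lower, namely *Sox6* at 0.240 (0.115 to 0.442), *Zbtb7a* at 0.271 (0.160 to 0.429), *Bcl11a* at 0.298 (0.163 to 0.502), *Igf2bp1* at 0.398 (0.0479 to 1.46) and *Igf2bp3* at 0.458 (0.0550 to 1.68). The last 2 rest on 2 UMIs each in the embryonic-globin cells. Without globin in the denominator 0 passed the limit, with *Bcl11a* at 0.753 (0.411 to 1.27), *Zbtb7a* at 0.683 (0.404 to 1.08) and *Sox6* at 0.606 (0.290 to 1.12), all including 1. On that scale 8.70% of all genes were higher and 27.5% lower, with a median log2 ratio of -0.18. Within S4/S5 alone, the 52 embryonic-globin cells had *Bcl11a* at 1.26 (0.587 to 2.42) times its CPM in the other S4/S5 cells and *Sox6* at 0.291 (0.0936 to 0.690), or 0.438 (0.141 to 1.04) without globin. These rest on 10 and 5 UMIs, and 1 cell held 6 of the 10. As a mean over cells, *Bcl11a* was at 21.3 CPM in the 52 cells and 22.6 in the other S4/S5 cells. *Hmga2* had 0 UMIs in the 94 cells, which allows up to 7.57 CPM, and 2.08 CPM in the others. At this depth a difference in the regulators beyond that of all genes was not detectable.

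Partners of the repressor BCL11A were measured as a list of 15 genes of the NuRD, LSD1-CoREST and DNMT1 corepressors. In S1 over S0-low, 0 of 15 passed the limit in either direction, where 2.85% of all genes were higher and 9.05% lower. The median log2 ratio was -0.19 against -0.18 for all genes. In S3 over S1, 9 of 15 were lower and 0 higher, where 53.7% of all genes were lower, with a median of -1.24 against -1.07. *Mta1* was at 39.8 CPM in S1 and 9.20 in S3, *Mbd3* at 152 and 48.7, and the remodelling ATPase *Chd4* at 92.2 and 31.0. In S4/S5 over S3, 9 of 15 were lower, where 49.5% of all genes were, with a median of -1.02 against -0.99. In the erythroid over the non-erythroid cells 0 of 15 passed, where 6.69% of all genes were higher and 29.0% lower. In the embryonic-globin cells 13 of 15 were lower and 0 higher, where 76.7% of all genes were lower, with a median of -1.72 against -1.51.

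Among 14 other regulators of globin switching, *Myb*, a progenitor factor that opposes maturation, was at 152 CPM in S0-low and 26.7 in S1. It and the histone methyltransferase gene *Ehmt2* were the 2 of 13 compared that were lower in S1, and 0 were higher, where 9.05% and 2.85% of all genes were, with a median log2 ratio of -0.36 against -0.18. In S3 over S1, 6 of 12 were lower, among them *Ehmt1* (19.4 to 4.49 CPM) and *Ehmt2* (13.1 to 3.14), and 1, *Klf3*, was higher. This is close to the 53.7% lower among all genes, and the median was -1.02 against -1.07. In the erythroid over the non-erythroid cells 4 of 14 were higher, which were *Klf1*, *Klf3*, *Gata1* and *Zfpm1*, and 4 were lower, where 6.69% and 29.0% of all genes were. In S4/S5 over S3, 0 of 7 were higher and 4 were lower, with a median of -1.20 against -0.99 and 49.5% of all genes lower. In the embryonic-globin cells 1 of 11 was higher and 8 were lower, with a median of -1.58 against -1.51 and 76.7% of all genes lower.

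Genes of the let-7 route were read at both ends. Of 12 genes for let-7 processing and decay, 9 could be compared in S1 over S0-low and 0 passed the limit. Of all genes, 2.85% were higher and 9.05% lower. The median log2 ratio was -0.26 against -0.18. In S3 over S1, 4 of 9 were lower, with a median of -0.97 against -1.07 and 53.7% of all genes lower, and *Dicer1*, the enzyme that cuts the hairpin, was at 33.5 CPM in S1 and 9.42 in S3. *Zcchc11*, which encodes a uridylyl transferase that acts with LIN28 proteins, was at 29.5 and 8.75 CPM. Of 19 other known let-7 targets, 9 of 16 compared were lower in S1 than in S0-low and 0 higher, with a median of -1.04 against -0.18 for all genes, of which 9.05% were lower. Among them were *Arid3a*, *Ccnd2*, *Cdk6*, *Myc*, *Mycn* and *Hmga1*, which act mainly in growth and cell division. *Mycn* was at 5.83 CPM in S0-low and 0.647 in S1, from 4 UMIs, and *Hmga1*, the paralog of *Hmga2*, at 67.7 and 31.2. In S3 over S1, 9 of 13 were lower and 1 higher, with a median of -1.42 against -1.07 and 53.7% of all genes lower.

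The larger set of genes with the 8-base match did not stand apart in the same way. In S1 over S0-low, 264 genes with a match had a median log2 ratio of -0.20, against -0.18 over all 7738 genes with a 3′ UTR, and 8.71% of them were lower against 9.40%. In S3 over S1 the medians were -1.13 for 221 genes and -1.07, and 55.7% were lower against 53.7%. In S4/S5 over S3 they were -1.01 and -0.99.

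Of 5 RNAs known to be bound by IGF2BP proteins, 1 of 4 compared was lower in S1 than in S0-low, where 9.05% of all genes were. The median log2 ratio was -0.67 against -0.18. In S3 over S1, 2 of 5 were lower and 1 higher, with a median of -0.36 against -1.07 and 53.7% of all genes lower. *Myc* was at 171 CPM in S0-low, 67.6 in S1 and 17.9 in S3, *Cd44* at 54.3, 36.6 and 5.61, *Actb* at 3534, 2059 and 1603, and *H19* at 23.3, 30.6 and 36.1. *Igf2*, a fetal growth factor, was at 2.43, 3.24 and 7.63 CPM, from 20 to 34 UMIs, and at 817 CPM in hepatocyte-like cells. The hepatocyte marker *Alb* was at 53.2, 56.5 and 109 CPM in the same 3 stages. The part of free RNA in the *Igf2* levels was not tested. In the erythroid over the non-erythroid cells 4 of 5, *Igf2*, *H19*, *Cd44* and *Actb*, were lower, where 29.0% of all genes were. Of 7 paralogs of the regulators, only *Hmga1* had enough UMIs to be compared in S1 over S0-low and in S3 over S1. It was lower both times, where 9.05% and 53.7% of all genes were.

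The 7 globin genes listed were all higher in S3 than in S1, where 4.64% of all genes were. *Hbb-y* was at 516 CPM in S1, where a single cell held 2300 of its 3189 UMIs, and at 10726 CPM in S3, but at 296 CPM over the Ter119-positive cells other than the embryonic-globin ones. *Hbb-bh1* was at 43.9 CPM in S1, 1252 in S3 and 590 in those other cells. *Hbb-bs* was at 5331 CPM in S0-low, 12689 in S1, 183225 in S3 and 323033 in S4/S5. Among the non-erythroid types *Hbb-bs* was at 6735 CPM in hepatocyte-like, 7710 in myeloid-like, 10776 in macrophage-like and 4335 in megakaryocyte-like cells. Its level in S0-low is thus not shown to be above background, and the part of free RNA in that level was not tested. *Hbb-y* was the 1 globin gene lower in S1 (516 CPM) than in S0-low (1180), and 3 S0-low cells with mostly embryonic globin held 87.3% of the S0-low *Hbb-y* UMIs.

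The likeness of patterns was measured as Pearson's r of log2 CPM over the 6 stages and 4 non-erythroid types, which share 1 library and differ in depth, among 8679 genes. *Bcl11a* was most like *Cdan1* (0.979), a gene of congenital dyserythropoietic anaemia, and *Sox6* most like *Dhrs11* (0.987) and *Cd24a* (0.986). *Zbtb7a* was most like *Haus8* (0.975), *Lin28b* like *Ebna1bp2* (0.995), *Igf2bp1* like *Rpp40* (0.990), *Igf2bp2* like *Pcbp4* (0.975), *Igf2bp3* like *Ppp4r1* (0.992) and *Hmga2* like *Palm* and *Perp* (both 0.980). Among the regulators, *Igf2bp2* and *Hmga2* were most alike (0.881) and *Igf2bp1* and *Igf2bp3* next (0.821), and *Sox6* was opposite to *Igf2bp3* (-0.912). These values describe 10 populations and carry no test.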

How the data were processed

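The data were 1 cDNA library (10x 3′ v2) and 1 antibody library of the same cells. The authors mapped the cDNA reads to mm10 with Cell Ranger and deposited raw UMI counts per gene and cell, before their filters, and raw counts per antibody and cell from CITE-seq-Count. Depth was 2510 to 38047 UMIs per cell (median 5707).

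The quality limits of the study (300 to 5000 genes, up to 9% mitochondrial UMIs) left out 508 cells, and Scrublet's method with 6% expected marked 128 doublets (1.63%). A centered log ratio over cells scaled each antibody. Ter119 was split by k-means into 3 classes, and CD71 into 3 at low and 2 at high Ter119. At intermediate Ter119 the CD71 border between S0-medium and S1 was used, and cells below it had no stage. Cells whose 5 lineage antibodies together exceeded the median by over 2 scaled absolute deviations left the stages. Gate positions are not given in the sources used here. Clusters used 2000 variable genes without the regulators and listed genes, 16 components, 30 neighbours and Leiden resolution 0.8. A name needed 3 fixed markers among the top 10 genes, and 2 unnamed clusters counted as non-erythroid where at least 60% of a non-erythroid marker list was raised by a log2 fold of 0.5 and under 30% of the erythroid list. These naming rules were set after the clusters were seen.

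Levels were summed UMIs per 1000000 (CPM), with exact Poisson intervals, ratios had exact conditional binomial intervals and shares Clopper-Pearson intervals, all at 95%. For a count of 0, the level it allows is the upper end of the exact interval. With 1 library no test was made. The ratio script was checked on simulated counts. The 3 genes with the largest change per list, and the 3 genes most like each regulator among those with at least 200 UMIs (log2 of CPM plus 10) were taken by rule. Other list genes named are those past the limit, named after their values were seen. The genes and lists were chosen with earlier results of these data known. 0 columns were left unmapped. Alternatives changed the scale, denominator (TMM by edgeR 4.0.16), minimum count, limit, antibody scale, classes, filters and clustering. Python 3.11.15, scanpy 1.11.5, scipy 1.17.1 and scikit-learn 1.9.0 were used, with seed 7.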

Additional observations from a re-analysis of the deposited data

How the results depend on the processing

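No paired analysis was possible because there was 1 library of each kind. Under the alternatives, 600 ratios of the 8 regulators were recomputed, of which 489 stayed within the counting interval of the reported value, 106 moved outside it and 5 that had been past the limit turned direction. Changing the minimum count or the ratio limit cannot change a ratio, so the ratios under these alternatives are among the 489 by construction. In all, 40 lay on the other side of 1 from the reported ratio, and 20 of these were within its counting interval. Among those that had not been past the limit were *Bcl11a* and *Lin28b* in S1 over S0-low, *Zbtb7a* in S3 over S1 and *Sox6* in S4/S5 over S3 without globin. Of 150 counts of regulators past the limit, 132 stayed within 1.5 times the reported count. Alternatives that left out the embryonic-globin cells, the *Mpo*-led cluster or the *Gata2*-led cluster were chosen after seeing the data.

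The S4/S5 over S3 count, where 2 regulators were lower, depended most on the processing. It was 1 with the mean over cells of CPM, without globin in the denominator, with TMM factors and with antibodies scaled within each cell. Of all genes, 43.4%, 5.38%, 4.17% and 41.0% were lower in these, in this order. The count was 4 with log10 antibody counts, and 5 with UMIs per cell, a ratio limit of 1.5 or doublets kept. There 65.4%, 73.2%, 78.2% and 53.2% of all genes were lower. In S3 over S1, the count of higher regulators was 0 with the mean over cells and with UMIs per cell, where 4.58% and 1.53% of all genes were higher. The count of lower ones was 2 without globin and 1 with TMM factors, where 20.2% and 9.58% of all genes were lower. In S1 over S0-low, 2 were higher with UMIs per cell, a limit of 1.5 or antibodies scaled within each cell, and 1 was lower without the *Gata2*-led cluster. Of all genes, 6.02%, 7.09% and 6.00% were then higher, and 5.55% were lower without that cluster. In the embryonic-globin cells the count of lower regulators was 0 without globin and with TMM factors, where 27.5% and 27.0% of all genes were lower. There, the ratios of *Igf2bp1* (1.01 and 1.02) and *Igf2bp3* (1.16 and 1.18) turned under these alternatives in turn. *Igf2bp3* in S4/S5 over S3 was at 1.06 with antibodies scaled within each cell. TMM factors and leaving out globin change the denominator by construction; for the other alternatives the cause was not tested.

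Intervals cover counting error only. They do not cover differences between embryos, libraries or gates, and genes under about 20 UMIs in a population, such as *Igf2bp2* and *Hmga2* beyond S0-medium, allow no order between stages.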
